A study of Mus musculus with 8 samples.

Results

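The phosphofructokinase and fructose bisphosphatase isoforms are the 9 genes Pfkm, Pfkl, Pfkp, Fbp1, Fbp2, Pfkfb1, Pfkfb2, Pfkfb3 and Pfkfb4, matched by current symbol and Entrez gene number in a table of 27179 genes. All 9 were found. RNA was sequenced from neonatal cardiomyocytes (NCMs) of 8 male C57Bl/6 J mice on postnatal day 0, with the cells of 1 heart in each library. The dams of 4 offspring breathed filtered air (FA replicates 2, 3, 4 and 6), and those of the other 4 breathed diesel exhaust (DE replicates 1, 3, 5 and 7) from E0.5 to E17.5. Mating took place in filtered air, and all hearts were trimmed of atria and vessels, dissociated with Liberase and left for 1 h in Ara-C so that fibroblasts could attach and be left behind. The litter of each pup is not given in the labels, so the spread between libraries may hold less than the spread between litters. The members were chosen with the difference between DE and FA already known, so that difference is given here as a description and not as a test.

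Phosphofructokinase commits glucose to glycolysis by adding a phosphate to fructose phosphate, and fructose bisphosphatase takes that phosphate off again. Phosphofructokinase works as a tetramer of muscle (Pfkm), liver (Pfkl) and platelet (Pfkp) subunits, which differ in how strongly ATP and citrate hold them back. The 4 Pfkfb genes encode bifunctional enzymes that both make and break down a fructose bisphosphate which serves only as a signal, switching phosphofructokinase on and fructose bisphosphatase off. The heart before birth relies largely on glucose and lactate, and shifts to fatty acids after birth.

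Library totals ran from 17943024 to 39839737 counted fragments, and no library was a copy of another of its group (chi-square of at least 5.06 per gene in every pair). Levels are given as CPM, in which library totals are made equal and adjusted by TMM factors. Sample names begin with a group and a number, a prefix whose meaning is not stated. It is 12 for DE replicates 3 and 5 and 11 for the other 6 libraries. The 8 cardiomyocyte markers looked for were all present, led by Myh6 and Actc1. Their summed level was 56032 to 63182 CPM in FA and 44213 to 52260 CPM in DE, with 8 of 8 lower on average in DE and 2 (Myh6 and Pln) past the thresholds used below. The summed level of 7 fibroblast markers was 2000 to 3451 CPM in FA and 3646 to 6164 CPM in DE, with 7 of 7 higher and 2 (Col1a1 and Dcn) past the thresholds.

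Of the 9 members, 8 had enough counts to be tested and 3 of these passed both thresholds, which were a 25% difference and, in the fit of all genes by edgeR's quasi-likelihood test, an adjusted p of at most 0.05. Pfkl and Pfkp were higher in DE and Fbp2 was lower. Over all 14966 tested genes 868 (5.80%) passed, 536 (3.58%) higher and 332 (2.22%) lower. The ranges of CPM in FA and DE were apart for 4 of the 8 tested members (Pfkl, Pfkp, Fbp2 and Pfkfb3), against 14.7% of all tested genes. Nothing is read from these counts, because the members were chosen on this contrast. RNA comes from the whole cell preparation, so fewer cells of a type and less RNA per cell cannot be told apart for any of these genes.

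**Figure D1:**
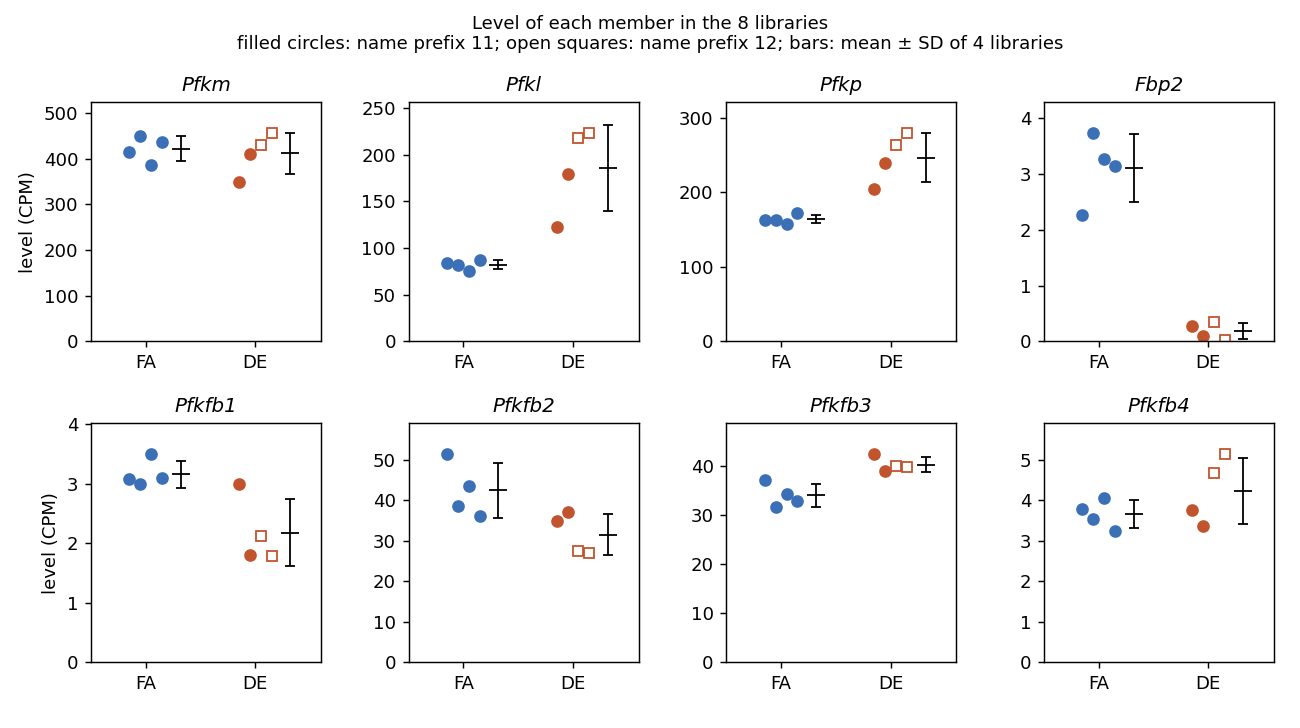
Level of each of the 8 tested members (vertical axis, CPM, starting at 0) in the 4 FA and 4 DE libraries, with filled circles for name prefix 11, open squares for prefix 12, and bars for the mean ± SD of 4 libraries. Pfkl and Pfkp lie higher in every DE library than in any FA library, Fbp2 lies near 0 in DE, and Pfkm overlaps between the groups.

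To show the DNA in front of the 3 members past the thresholds, the 250 bases before each transcription start are printed 5′ to 3′ on the strand of the gene, from RefSeq on GRCm38.p6. All 9 members were matched, with 18 starts between them, and Fbp2, Pfkl and Pfkp have 1 start each. Capitals mark CACGTG (an E-box) and GGGCGG (a GC box) on either strand. The windows are chr13:62858401-62858650 for Fbp2, chr10:78009808-78010057 for Pfkl and chr13:6648772-6649021 for Pfkp, all on the minus strand. The starts and the gene bounds given below are both those of RefSeq. The bounds of Pfkp reach farther upstream than the start used here, so its window lies inside those bounds.
Fbp2: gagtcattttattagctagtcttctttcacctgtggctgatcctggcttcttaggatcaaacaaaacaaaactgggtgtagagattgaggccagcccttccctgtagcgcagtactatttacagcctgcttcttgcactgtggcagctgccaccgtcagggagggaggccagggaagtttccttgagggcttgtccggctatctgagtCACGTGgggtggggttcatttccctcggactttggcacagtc
Pfkl: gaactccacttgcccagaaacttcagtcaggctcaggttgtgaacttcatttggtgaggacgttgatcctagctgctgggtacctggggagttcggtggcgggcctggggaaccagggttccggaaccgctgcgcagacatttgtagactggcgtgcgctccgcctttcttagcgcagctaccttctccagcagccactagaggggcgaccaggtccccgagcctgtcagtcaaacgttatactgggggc
Pfkp: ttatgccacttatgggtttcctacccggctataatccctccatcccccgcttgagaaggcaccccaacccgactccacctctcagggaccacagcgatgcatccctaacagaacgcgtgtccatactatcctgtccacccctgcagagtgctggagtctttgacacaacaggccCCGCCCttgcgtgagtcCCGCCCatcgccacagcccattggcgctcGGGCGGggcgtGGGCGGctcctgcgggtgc

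The window of Fbp2 held 1 E-box, ending 37 bases before the start, and no GC box. That of Pfkp held 4 GC boxes, the farthest ending 71 bases before the start, and no E-box, and that of Pfkl held neither. Over 32851 windows of the same length, 6.02% held CACGTG and 32.7% held GGGCGG on either strand. The hypoxia core GCGTG was found 3 times in the Pfkp window and 1 time in the Pfkl window, against 28.2% of all windows with at least 1. The hypoxia core ACGTG, in 16.6% of all windows, was found in the Fbp2 window only within the E-box. These matches are letters in a window and were not tested as binding sites.

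Pfkm, the muscle subunit, lies on chromosome 15 of GRCm38.p6 from 98092589 to 98132447 on the plus strand. Its level was 414, 449, 387 and 436 CPM in FA replicates 2, 3, 4 and 6. In DE replicates 1, 7, 3 and 5 it was 350, 410, 430 and 456 CPM. The groups overlapped, with the lowest and the highest of the 8 libraries both in DE. The FA libraries averaged 421 ± 27.3 CPM and the DE libraries 411 ± 45.2 CPM (SD over n = 4 libraries), and the fitted log2 fold change was -0.04 (standard error 0.10), whose 95% interval ran from -0.26 to 0.19. Its sign turned, at 0.04 with library totals alone and 0.03 without DE replicate 1.

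Pfkl, the liver subunit, lies on chromosome 10 from 77986947 to 78009807 on the minus strand. Its level was 84.3, 82.1, 75.5 and 87.8 CPM in FA replicates 2, 3, 4 and 6. In DE replicates 1, 7, 3 and 5 it was 123, 180, 218 and 223 CPM. The FA libraries lay close together and the DE libraries far apart, with a coefficient of variation of 6.31% in FA and 24.9% in DE. The lowest DE library was still above the highest FA library. The FA libraries averaged 82.4 ± 5.20 CPM and the DE libraries 186 ± 46.2 CPM (SD over n = 4 libraries), which is 2.26-fold higher in DE, and the fitted log2 fold change was 1.17 (standard error 0.17). Within the libraries of prefix 11 alone it was 0.87, and Pfkl stayed past both thresholds.

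Pfkp, the platelet subunit, lies on chromosome 13 from 6579874 to 6649060 on the minus strand. Its level was 164, 164, 158 and 172 CPM in FA replicates 2, 3, 4 and 6. In DE replicates 1, 7, 3 and 5 it was 205, 239, 263 and 280 CPM. The libraries of DE stood in the same order for Pfkp as for Pfkm and Pfkl, lowest in replicate 1 and highest in replicate 5. The FA libraries averaged 164 ± 5.81 CPM and the DE libraries 247 ± 32.6 CPM (SD over n = 4 libraries), a 1.5-fold difference, and the fitted log2 fold change was 0.59 (standard error 0.11). Pfkp no longer passed the thresholds without FA replicate 4 (0.56), in the libraries of prefix 11 alone (0.43), with the prefix as a term (0.43), or with the 25% difference built into the test (0.59).

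Levels of different genes were compared per transcript length, as CPM per kilobase. On this scale the order in FA was Pfkm, Pfkp and Pfkl, at 146 ± 9.49, 39.7 ± 1.40 and 22.1 ± 1.39 CPM per kilobase (SD, n = 4), and the ranges of the 3 genes did not overlap. In DE the order of the means was the same, at 143 ± 15.7, 59.5 ± 7.86 and 49.8 ± 12.4 CPM per kilobase. There the highest Pfkl library, at 59.8, was above the lowest Pfkp library, at 49.4, so over libraries the ranges of Pfkp and Pfkl met. Of the summed level of the 3 subunits, Pfkm made up 69.9%, 71.7%, 69.7% and 69.9% in FA replicates 2, 3, 4 and 6 and 59.6%, 57.3%, 55.1% and 55.4% in DE replicates 1, 7, 3 and 5. Every DE library was below every FA library. The share of Pfkl was 10.1% to 11.0% in FA and 16.2% to 21.5% in DE, and that of Pfkp was 18.1% to 19.8% in FA and 23.3% to 24.2% in DE. The differences between the mean shares in DE and FA were -13.4 percentage points for Pfkm, 8.90 for Pfkl and 4.55 for Pfkp. The summed level was 208 ± 11.5 CPM per kilobase in FA and 252 ± 35.8 in DE. It overlapped between the groups, since DE replicate 1, at 204, lay within the FA range.

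**Figure D2:**
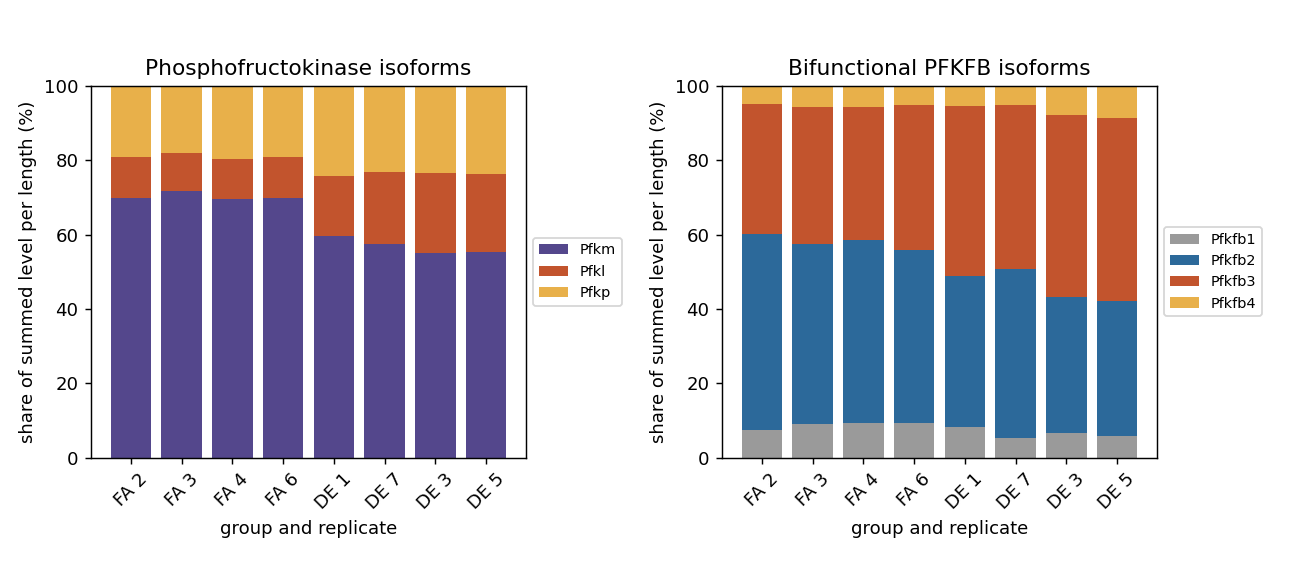
Share of each isoform (vertical axis, % of the summed level per transcript length) in each library, with the 3 phosphofructokinase subunits on the left and the 4 Pfkfb genes on the right. The Pfkm segment ends at 69.7% or more in the FA libraries and at 59.6% or less in the DE libraries, and the Pfkfb3 segment is larger in DE.

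The fibroblast markers were higher in DE as well, and their part in the levels of Pfkl and Pfkp was not tested. In DE replicates 1, 7, 3 and 5 the summed fibroblast markers were 6164, 4524, 4689 and 3646 CPM. In the same libraries Pfkl was 123, 180, 218 and 223 CPM and Pfkp was 205, 239, 263 and 280 CPM. Endothelial markers came to 846 to 1119 CPM in FA and 870 to 1313 CPM in DE. Leukocyte markers, 6 genes with Ptprc and Cd68 among them, summed to 25.7 CPM or less in every library, and 1 of them (Itgam) was higher in DE and past the thresholds. The 4 erythroid markers found, led by Hba-a1, summed to 288 to 716 CPM in FA and 445 to 748 CPM in DE, with 1 of 4 (Slc4a1) past the thresholds.

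Fbp2, the muscle fructose bisphosphatase and the gene with the E-box window printed above, lies on chromosome 13 from 62836884 to 62858400 on the minus strand. It was counted 85, 75, 58 and 64 times in FA replicates 2, 3, 4 and 6, which is 2.27, 3.74, 3.27 and 3.15 CPM. In DE replicates 1, 7, 3 and 5 it was counted 9, 2, 12 and 1 times, which is 0.272, 0.107, 0.344 and 0.0249 CPM. The lowest FA library was several times higher than the highest DE library. The FA libraries averaged 3.11 ± 0.612 CPM and the DE libraries 0.187 ± 0.147 CPM (SD over n = 4 libraries). The sums of 282 and 24 counts, each over its group's scaled totals, give a level 15.6-fold higher in FA. The exact 95% interval, from 10.3 to 24.7, covers at most counting error. The fitted log2 fold change was -3.99 (standard error 0.43) and lay between -4.50 and -3.54 when single libraries were left out. Fbp2 passed the filter on low counts through the FA libraries alone, since 4 of 4 FA and 0 of 4 DE libraries reached its minimum, so a gene that passed in this way had to differ.

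Fbp1, the fructose bisphosphatase of liver and kidney, is the neighbouring gene on the same strand, from 62864753 to 62888298. It had 5 counts over the 8 libraries, 1 in FA replicate 6 and 1 in each DE library, and was not tested. Each library was under the floor of 3 counts, so no difference was detectable at this depth. Fbp2 thus held nearly all fructose bisphosphatase counts in FA. Markers of tissues known for these enzymes were also examined. Summed skeletal muscle markers came to 1033 to 1380 CPM in FA and 1114 to 1444 CPM in DE, carried by Ckm, which the heart also expresses, while the fast myosins Myh4 and Myh1 were at 0.0587 and 0.178 CPM on average in FA. The 5 hepatocyte markers summed to 3.17 CPM or less in every library, where Serpina1a was at 0 throughout and Alb averaged 0.0123 CPM in FA. The 4 kidney markers summed to 10.8 to 13.3 CPM in FA and 5.64 to 9.32 CPM in DE. Umod was at 0 in all libraries, and Cubn, averaging 8.89 CPM over FA and 4.79 CPM over DE, was lower in DE and past the thresholds. The part of such cells in the level of Fbp2 was not tested.

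As a log2 ratio per transcript length, Fbp2 against the 3 summed phosphofructokinase subunits was -6.94, -6.30, -6.32 and -6.54 in FA replicates 2, 3, 4 and 6. In DE replicates 1, 7, 3 and 5 it was -9.98, -11.6, -10.1 and -13.9. The values of DE replicates 7 and 5 rest on 2 counts and 1 count of Fbp2, under the floor of 3. The groups did not overlap, and their means differed by -4.87, or by -4.03 without DE replicate 5.

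Among the bifunctional enzymes, Pfkfb2, the heart isoform whose kinase is switched on by phosphorylation, and Pfkfb3, the inducible isoform with a high ratio of kinase to phosphatase activity, were the most abundant. Pfkfb2 lies on chromosome 1 from 130689043 to 130729253 on the minus strand. Its level was 51.4, 38.6, 43.6 and 36.1 CPM in FA replicates 2, 3, 4 and 6, and 34.8, 37.0, 27.4 and 27.0 CPM in DE replicates 1, 7, 3 and 5. Only DE replicate 7 reached into the FA range. The FA libraries averaged 42.4 ± 6.74 CPM and the DE libraries 31.6 ± 5.12 CPM (SD over n = 4 libraries), and the fitted log2 fold change was -0.43 (standard error 0.14), which did not pass the thresholds. Its 95% interval ran from -0.74 to -0.12. With the prefix as a term the value was -0.24, and within the libraries of prefix 11 it was -0.25.

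Pfkfb3 lies on chromosome 2 from 11471430 to 11554071 on the minus strand. Its level was 37.1, 31.6, 34.2 and 32.9 CPM in FA replicates 2, 3, 4 and 6, and 42.3, 38.9, 39.8 and 39.7 CPM in DE replicates 1, 7, 3 and 5. All DE libraries were above all FA libraries, by a small margin. The FA libraries averaged 33.96 ± 2.36 CPM and the DE libraries 40.2 ± 1.49 CPM (SD over n = 4 libraries), and the fitted log2 fold change was 0.24 (standard error 0.09), with a 95% interval from 0.04 to 0.44. It did not pass the thresholds.

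Pfkfb1, the isoform of liver and skeletal muscle on chromosome X from 150587445 to 150643878, was 2.99 to 3.50 CPM in FA and 1.80 to 3.00 CPM in DE. DE replicate 1 alone reached the FA range. Its log2 fold change was -0.53 (standard error 0.19), not past the thresholds, and without DE replicate 1 it passed at -0.72. Pfkfb4, the testis isoform on chromosome 9 from 108988272 to 109032236, was 3.25 to 4.06 CPM in FA and 3.36 to 5.14 CPM in DE. The groups overlapped, and the fitted log2 fold change was 0.22 (standard error 0.17). The 2 highest Pfkfb4 libraries were those of prefix 12, at 4.68 and 5.14 CPM, and within the libraries of prefix 11 the log2 fold change was -0.04.

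Per transcript length, Fbp2 stood at 2.30 ± 0.452 CPM per kilobase in FA, with a range that met that of Pfkfb1. Among the 4 Pfkfb genes Pfkfb2 was highest in FA, at 9.59 ± 1.52 CPM per kilobase, and Pfkfb3 was next at 7.07 ± 0.493. Pfkfb1 followed at 1.69 ± 0.121 and Pfkfb4 at 1.05 ± 0.100 (SD, n = 4), and no ranges overlapped. In DE Pfkfb3, at 8.37 ± 0.309, stood above Pfkfb2, at 7.13 ± 1.16, but their ranges overlapped, and so did those of Pfkfb4 (1.21 ± 0.235) and Pfkfb1 (1.17 ± 0.301). The log2 ratio of Pfkfb3 to Pfkfb2 in the same library was -0.59, -0.41, -0.47 and -0.25 in FA replicates 2, 3, 4 and 6. It was 0.16, -0.05, 0.42 and 0.44 in DE replicates 1, 7, 3 and 5. Pfkfb2 exceeded Pfkfb3 in all 4 FA libraries and in DE replicate 7. As a share of the 4 genes, Pfkfb2 was at 49.2% ± 2.56 in FA and 39.7% ± 4.33 in DE, and Pfkfb3 at 36.6% ± 1.72 and 46.9% ± 2.56 (SD, n = 4 each). The difference in the share of Pfkfb2, DE minus FA, was -9.48 percentage points, and -6.145 within prefix 11. The summed level was similar in both groups, at 19.4 ± 2.08 and 17.9 ± 1.22 CPM per kilobase, with overlapping ranges.

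**Figure D3:**
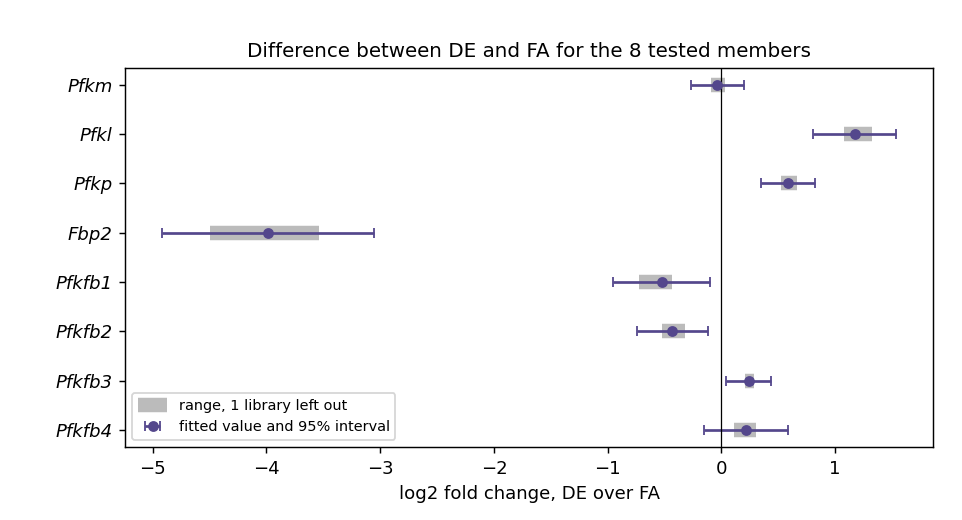
Log2 fold change of DE over FA for the 8 tested members (horizontal axis), with points and thin bars for the fitted value and its 95% interval, and grey bars for the range with each of the 8 libraries left out in turn. Fbp2 lies far to the left at -3.99, Pfkl lies at 1.17, and the bar of Pfkm spans 0.

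An E-box was present in 4 of the 18 member windows, and they are printed with 7 bases on each side on the strand of the gene, to compare the flanks. Those of Fbp2, Pfkfb2 and Pfkfb3 are on the minus strand and that of Pfkm on the plus strand.
Fbp2 (chr13:62858430-62858449): tctgagtCACGTGgggtggg
Pfkfb2 (chr1:130715831-130715850): agcgcccCACGTGactcgcc
Pfkfb3 (chr2:11502131-11502150): ttctctcCACGTGaaagggg
Pfkm (chr15:98092446-98092465): agtatgcCACGTGaagtaag

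Of the runs that the Fbp2 window shared with the windows of the other members, the longest was with Pfkfb2, the 13 bases gagtCACGTGggg, which are read on opposite strands relative to the genes. This run was present in 4 of the 32851 windows. It was noticed after the sequences were read, so it is a description. The Pfkfb2 window belongs to 1 of its 3 starts, and counts per gene do not show which start was used.

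The 2 prefixes within DE give a contrast that the choice of members did not use. When FA and the prefixes within DE were fitted as 3 groups, 309 of 14966 genes (2.06%) passed the thresholds between DE libraries of prefix 12 and prefix 11 (n = 2 each). None of the 8 tested members was among them in edgeR's quasi-likelihood test, and 4 were at an unadjusted p under 0.05, as were 3490 (23.3%) of all tested genes. Pfkl was highest in difference, with means of 220 CPM (prefix 12) and 151 CPM (prefix 11), a log2 difference of 0.54 (standard error 0.17, adjusted p = 0.0937). Pfkfb4 differed by 0.46 (adjusted p = 0.179), Pfkfb2 by -0.40 (adjusted p = 0.168) and Pfkp by 0.29 (adjusted p = 0.194). Without a filter on low counts Pfkl passed (0.56, adjusted p = 0.0359), and with the DE libraries alone Pfkfb2 passed (-0.41, adjusted p = 0.0457). The adjusted p of Pfkl was between 0.0359 and 0.382 over the alternatives. Its difference was 0.29 without DE replicate 1 (adjusted p = 0.382) and 0.85 without DE replicate 7 (adjusted p = 0.0774), and in both fits prefix 11 held 1 DE library, which is assumed to vary like the other groups. Fbp2 differed by -0.25, with a 95% interval from -2.07 to 1.57.

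The other genes of glucose use and production, from the glucose transporters to glucose release, were 28 in a list chosen with earlier results of these data known, so its counts are not independent evidence of a direction. Of these, 22 were tested. Compared with FA, 7 rose in DE and 0 fell by the thresholds in edgeR's quasi-likelihood test, where 3.58% of all tested genes passed as higher and 2.22% as lower. DESeq2, which called 1633 genes in all (10.9%), and edgeR's likelihood ratio test, which called 1603 (10.7%), also gave 7 higher and 0 lower in the list, and no gene was lower at an unadjusted p under 0.05. The values of 20 of the 22 were higher, with a median log2 fold change of 0.27 against 0.00 for all tested genes. Slc2a1, the glucose transporter of most growing cells, rose by 0.95 on the log2 scale, from a mean of 26.9 ± 1.52 to 52.0 ± 9.90 CPM (SD over n = 4 libraries, adjusted p = 0.00308). Ldha, a lactate dehydrogenase subunit, rose by 0.71 on the log2 scale (adjusted p = 0.00406). Aldoc, an aldolase averaging 14.6 CPM in FA and 23.5 CPM in DE, rose by 0.69 (adjusted p = 0.0254). Tpi1, triosephosphate isomerase, rose by 0.50 (adjusted p = 0.0323). Pgk1, which makes ATP (0.46, adjusted p = 0.0293), Pkm, pyruvate kinase (0.39, adjusted p = 0.0461), and Pcx, pyruvate carboxylase (0.68, adjusted p = 0.00811), were the other 3. The abundant Aldoa was at 1509 ± 235 and 1928 ± 249 CPM (0.35, adjusted p = 0.135). Gpi1, Eno1, Eno3 and Ldhb, also above 500 CPM, had log2 fold changes of 0.22, 0.26, 0.14 and -0.06 and did not pass. The number past the thresholds was 3 without FA replicate 2, FA replicate 4, DE replicate 7 or DE replicate 3, and 4 without FA replicate 3 or DE replicate 5. It was 2 with the 25% difference built into the test, 3 with the prefix as a term and 3 within prefix 11.

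**Figure D4:**
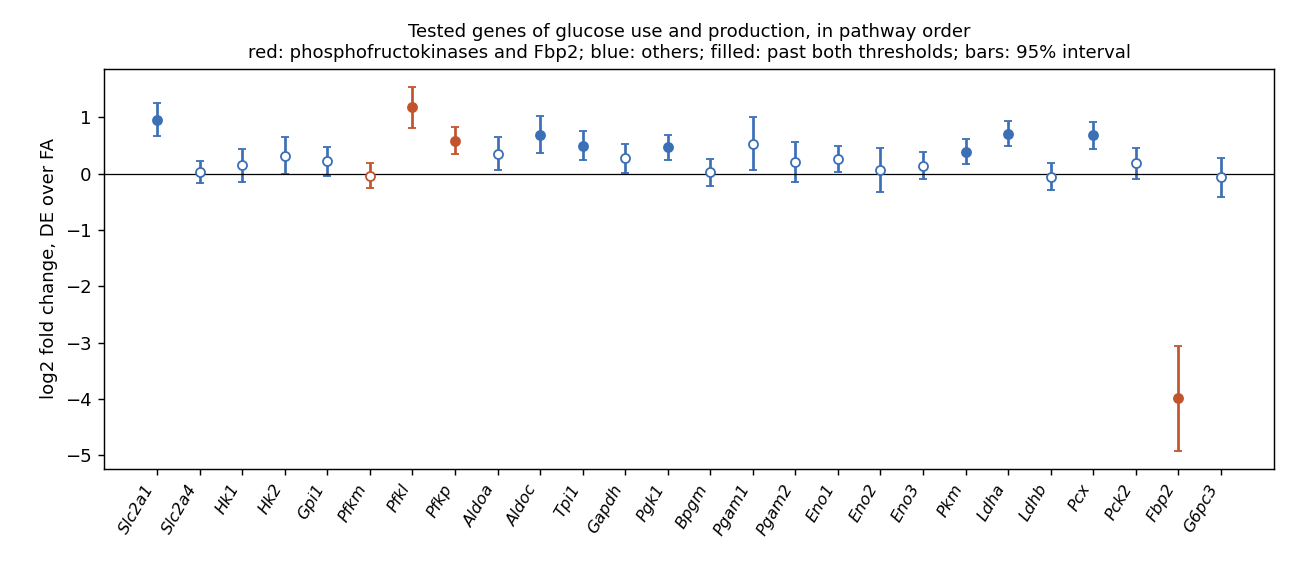
Log2 fold change of DE over FA (vertical axis) for the tested genes of glucose use and production in pathway order, with bars for the 95% interval, members in red, other genes in blue, and filled points for genes past both thresholds. Most blue points lie between 0 and 1, Pfkl is the highest point and Fbp2 the lowest.

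Enzymes and transcription factors that act on these genes or on their signal metabolite were 17 in number, among them an enzyme that breaks the signal metabolite down and the catalytic subunits of AMPK. None passed the thresholds in edgeR's quasi-likelihood test, in DESeq2 or in the likelihood ratio test, and 3 were at an unadjusted p under 0.05. Over all tested genes 5.80% passed the thresholds and 25.6% were at an unadjusted p under 0.05. The median log2 fold change of the 17 was -0.12. The 3 at an unadjusted p under 0.05, named here after their values were seen, were Prkaa2, the main AMPK catalytic subunit of muscle (-0.51, adjusted p = 0.101), Arnt, the partner of the hypoxia factors (-0.23, adjusted p = 0.167), and Epas1, a hypoxia factor (0.34, adjusted p = 0.112). Of 14 genes that respond to low oxygen, a stimulus known to induce Pfkfb3 and Pfkfb4, 3 rose and 0 fell, beside 3.58% and 2.22% of all tested genes, with a median of 0.34, and 0 were lower at an unadjusted p under 0.05. DESeq2 and the likelihood ratio test, with their larger totals, called 5 higher and 0 lower. Bnip3, a mitophagy receptor, rose by 1.11 on the log2 scale (adjusted p = 0.000628), Egln3, an oxygen sensor, by 1.17 (adjusted p = 0.0231) and Ndrg1 by 0.52 (adjusted p = 0.0452). Over both lists the count of 3 became 1 without FA replicate 2, FA replicate 4 or DE replicate 3, 2 without FA replicate 3, FA replicate 6 or DE replicate 5, and 5 without DE replicate 1. Both lists were chosen with earlier results of these data known, so their counts are not independent evidence of a direction.

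The genes with the most similar profile were named by the root mean square difference of log2 CPM over the 8 libraries, after each gene was centred on its own mean, among 13362 genes of at least 1 CPM. The match takes in the difference between DE and FA, so a direction shared with a member follows from the matching. For Fbp2, which had 24 counts in DE, the nearest genes were Slc25a34, a mitochondrial carrier (0.49), and Scd4, a fatty acid desaturase (0.86). Both were lower in DE, with log2 fold changes of -3.32 and -2.67. For Pfkl they were Kcnk7 (0.15), a potassium channel gene with means of 0.756 (FA) and 1.68 (DE) CPM, and Slc2a1 (0.18). For Pfkp they were Gm13232 and Nup85, a nuclear pore gene (0.06 each), and for Pfkm Cdk11b (0.03) and Tra2a (0.04). The nearest profile to Pfkfb2 was that of Pik3ca (0.06), a catalytic subunit of PI3 kinase, and that to Pfkfb3 was Tns2 (0.06). The nearest to Pfkfb1 and Pfkfb4 were Cc2d2a (0.07) and Cntrob (0.05).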

How the data were processed

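RNA from NCMs of 4 FA and 4 DE male neonates was measured by RNA-seq. The methods state fewer libraries per group than the 4 that the labels give, and all 4 were used. The deposited values are raw counts of fragments per Entrez gene. The authors selected poly-A RNA, made stranded libraries, aligned reads to mm10 with Tophat, marked duplicates without removing them and counted with featureCounts. Which annotation and strand mode counting used, and what was done with reads shared by paralogs, is not given in the sources used here, so counts of overlapping or similar genes are uncertain. Duplicates are not independent molecules, so intervals from counts may be too narrow even for counting error.

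Of 27179 genes, 25275 were given a symbol through RefSeq genes on GRCm38.p6, and members were matched by current symbol and Entrez number, since older synonyms of Fbp1 and Fbp2 are crossed. Libraries were grouped from their labels. filterByExpr, at a minimum of 10 counts, kept 14966 genes. After TMM scaling, exposure was the single term of a quasi-likelihood fit (edgeR 4.0.16 in R 4.3.3, glmQLFTest), since the methods name edgeR but no test. P-values were adjusted by Benjamini-Hochberg across the tested genes. Calls needed an adjusted p of at most 0.05 together with a fold difference of at least 1.25. Standard errors are the log2 fold change divided by the square root of F. Levels per length use the longest protein-coding transcript of GENCODE M21. Profiles used log2 CPM with a prior count of 2.

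The genes named are the 9 members, the 2 nearest profiles of each, called genes of the lists, list genes averaging 500 CPM or more, and the leading or absent markers. Called or nearly absent markers, and regulators at an unadjusted p under 0.05, were named after their values were seen. For Pfkfb1 to Pfkfb4 only the nearest profile is printed. Marker lists covered cardiac, skeletal and smooth muscle (with pericytes), fibroblasts, endothelium, blood cells, hepatocytes, mesothelium and kidney tubule. Smooth muscle markers summed to between 1105 and 1733 CPM in FA and between 780 and 1142 CPM in DE, with 0 of 5 called, and mesothelial markers to between 83.3 and 109 and between 79.4 and 116, with 0 of 4 called. The members and lists were chosen with earlier results of these data known. The alternatives were DESeq2 1.42.0, the likelihood ratio test, the 25% difference built into the test (glmTreat), other scaling factors and filters, the prefix as a term, prefix 11 alone, other lengths, and each library left out. The code was tested on simulated data.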

Additional observations from a re-analysis of the deposited data

Results flagged for a closer look

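In 32 groups of 4 libraries (8 members and 8 shares or ratios in each exposure), 1 held a library far from the others by Dixon's criterion, where chance marks about 1 group in 20. The share of Pfkm among the 3 phosphofructokinase subunits was 71.73% in FA replicate 3, with the next FA library at 69.92%, a gap that was 0.888 of the range of the group. It lay on the side away from the DE libraries.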

How the results depend on the processing

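No paired analysis was possible because the labels give no pairs between FA and DE. The count of 868 called genes became 1633 with DESeq2, 1603 with the likelihood ratio test, 114 with the 25% difference built in, 448 with the prefix as a term and 260 within prefix 11, and 237 to 1168 with single libraries left out. Under the 25% difference built in, the prefix as a term and prefix 11 alone, the glucose list gave 2, 3 and 3 calls in place of 7, and the regulator and hypoxia lists together 1, 1 and 1 in place of 3. With DESeq2 and the likelihood ratio test the latter gave 5 and 5. With single libraries left out they gave 3 to 8 and 1 to 5. The count of 3 called members stayed between 2 and 4 under all 17 alternatives. Of these, the prefix as a term and prefix 11 alone compare the same libraries for exposure. Pfkm turned to 0.0358 with library totals alone and lay between -0.08777 and 0.03321 with single libraries left out (positive without DE replicate 1), and Pfkfb4 to -0.03593 with the prefix as a term and -0.04082 within prefix 11. Within prefix 11 the difference in share was 7.182 percentage points for Pfkl, -6.145 in place of -9.48 for Pfkfb2 and -0.02947 for Pfkfb4, which is turned from 1.44. The difference for Pfkfb4 was 0.8051 without DE replicate 5. For Pfkfb1 the difference was -1.054 without scaling by length and -1.226 with coding length, in place of -2.294. The length of all exons merged, an alternative chosen after the data were seen, moved no share or ratio by more than the spread between libraries. Between the prefixes within DE, 1 member was called without a filter on low counts and 1 with the DE libraries alone, in place of 0, and 0 to 0 with single libraries left out. That last range is no sign of stability, since without a DE library 1 prefix holds a lone sample, assumed to vary like the other groups. The cause of these shifts was not tested. Depth limits Fbp2 in DE, where it rests on 24 counts, and Fbp1 in all libraries.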
